A study of Mus musculus with 167 samples.

Results

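The transcripts described here are 10 mouse genes of transforming growth factor beta (TGF-beta) and activin signalling, chosen by name out of the 36118 genes of a deposited RNA-seq table. They are the ligand genes Tgfb1, Tgfb2 and Tgfb3, the receptor genes Tgfbr1, Tgfbr2 and Tgfbr3, the activin subunit gene Inhba, the activin binder Fst, the microfibril gene Ltbp2 and the matrix gene Tgfbi. All 10 were found in the table and all 10 passed the filters on low counts. RNA came from 167 whole tumours of 119 mice, 36 mice below and 83 mice above median survival as the labels class them. Every mouse was the offspring of a male of a Collaborative Cross (CC) strain, an inbred mosaic of several founder genomes, and a MexTAg female, whose transgene places SV40 large T antigen behind the promoter of mesothelin. That promoter is active in mesothelial cells, so every tumour of both classes carried it. All mice received 2 intraperitoneal injections of 3 mg crocidolite asbestos a month apart and, per the labels, no other treatment. No tumour-free or asbestos-free tissue was analysed here, and age, sex and survival times were not used here. The tumours came from 35 crosses, called strains here, of which 13 held mice of both classes, 6 only mice below and 16 only mice above the median.

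TGF-beta ligands are secreted in a latent form bound to matrix, and integrins or proteases set them free. The free ligand binds the kinase receptor encoded by Tgfbr2, which recruits and activates the kinase receptor encoded by Tgfbr1, and SMAD proteins then carry the signal to the nucleus. In connective tissue the pathway is known for inducing collagens and contractile proteins, and activin, a related ligand, signals through the same class of SMAD proteins.

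Libraries held 11138491 to 35399287 estimated counts. A library was set apart when a list of another tissue, such as hepatocytes or pancreas, took over 1% of its counts, which held for 11 tumours of mice below and 11 tumours of mice above the median. Another 5 libraries resembled a strain other than their labelled one, and in 8 strains every mouse held Umod, a kidney gene, over 2 CPM. The results below are given without these libraries where that changed a call. The label mesothelioma was checked against mesothelial markers. Msln was detected in all 167 libraries with a median of 16.7 CPM and a range of 0.596 to 1172 CPM. Calb2, the calretinin gene used to diagnose mesothelioma in people, was at 0 in 61 libraries and at 3 counts or fewer in 126, so the marker was largely absent from these RNA profiles. The other listed markers had medians from 2.34 CPM for Lrrn4 to 119 CPM for Pdpn. At most 9 libraries, for Muc16, held 3 counts or fewer of any of these. Replicates were mice, and counts of the tumours of a mouse were summed.

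The promoters of a trio of ligand genes that behave differently below are shown first, so that their sequence can be read beside their levels. Each line gives the 250 bases before the start site in the 5′ to 3′ direction of the gene, from RefSeq on GRCm38.p6. Capitals mark TATAAA, the letters of a TATA box, and GGGCGG, those of a GC box, on either strand.
Tgfb1 chr7:25686752-25687001, plus strand: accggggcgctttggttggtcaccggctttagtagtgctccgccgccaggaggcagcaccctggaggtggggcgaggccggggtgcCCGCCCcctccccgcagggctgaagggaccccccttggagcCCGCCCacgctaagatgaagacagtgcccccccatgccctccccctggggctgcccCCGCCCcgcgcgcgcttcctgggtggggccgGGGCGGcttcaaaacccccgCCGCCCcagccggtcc
Tgfb2 chr1:186705990-186706239, minus strand: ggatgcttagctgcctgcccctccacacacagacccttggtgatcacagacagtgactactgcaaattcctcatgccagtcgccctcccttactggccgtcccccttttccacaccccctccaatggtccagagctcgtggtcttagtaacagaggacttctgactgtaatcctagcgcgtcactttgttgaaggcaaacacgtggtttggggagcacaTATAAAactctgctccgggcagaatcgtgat
Inhba chr13:16011601-16011850, plus strand: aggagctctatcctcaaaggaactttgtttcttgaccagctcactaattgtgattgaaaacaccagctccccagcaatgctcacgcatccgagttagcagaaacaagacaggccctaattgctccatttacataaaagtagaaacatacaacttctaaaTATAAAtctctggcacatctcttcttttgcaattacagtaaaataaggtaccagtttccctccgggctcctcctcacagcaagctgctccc

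The Tgfb1 window held 5 GC boxes and no TATAAA, with 75.2% G or C. The Tgfb2 window held TATAAA from 31 to 26 bases before the start and no GC box, with 53.6% G or C. The Inhba window held TATAAA from 91 to 86 bases before the start and no GC box, with 43.2% G or C. Of 27018 mouse promoters of the same window, 13% held TATAAA and 32.9% held GGGCGG, with a median of 52% G or C. The AP-1 letters TGANTCA, present in 6.87% of the promoters, were in none of the 3 windows, and no 2 of these matches overlapped. A match of letters is a description of sequence and does not show that a factor binds. Promoter entries were at hand for 7 of the 10 genes. The windows of Tgfbi, Tgfbr1 and Ltbp2 held 1, 2 and 2 GC boxes, and that of Tgfbr2 held none. None of these held TATAAA, and a second window of Tgfbr1 held neither. Tgfbi, Ltbp2 and Tgfbr2 rose with collagen genes in the results below, as Tgfb2 and Inhba did, and Tgfbr1 and Tgfb1 did not. Promoter sequence was not tested against levels.

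Per kilobase of merged exons, Tgfbi was the most abundant of the 10 transcripts and Fst the least. Tgfbi (GRCm38, chr13:56609523-56639562), which encodes a secreted matrix protein named for its induction by TGF-beta, had a median level of 141 CPM per kilobase over the 119 mice. Tgfbr2 (chr9:116084293-116175360), the receptor that binds free ligand, followed with 46.01 CPM per kilobase. Tgfb3 (chr12:86056745-86079041), Tgfb1 (chr7:25687002-25705077), Tgfbr3 (chr5:107106570-107289629) and Ltbp2 (chr12:84783212-84876532) had 29.5, 22.6, 21.9 and 20.3 CPM per kilobase. Tgfbr1 (chr4:47353222-47414931) had 17.5, Inhba (chr13:16011851-16031621) 16.4, Tgfb2 (chr1:186622792-186705989) 9.76 and Fst (chr13:114452290-114458951) 3.62 CPM per kilobase. The spread over mice also differed between genes. Tgfb1 spanned 14.03-fold between its lowest and highest mouse and Tgfbr1 11.6-fold, whereas Inhba spanned 597-fold and Tgfb2 2886-fold.

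The first comparison asks whether the transcripts differ between mice that survived for shorter and for longer than the median. None of the 10 passed over all mice, where 267 of 17091 genes passed (1.56%, edgeR quasi-likelihood test, adjusted p under 0.05), 0.983% of all genes higher and 0.579% lower in mice below the median, and 9.03% had an unadjusted p under 0.05. Of the members 0 had an unadjusted p under 0.05. DESeq2 called 1.67% of genes, edgeR with the size factors of DESeq2 1.58% and limma-voom 0%, and again none of the 10. In these bulk tumours fewer cells of a type and less RNA per cell cannot be told apart, which holds for each result here. Tgfb1, the isoform stored in platelets and made by many immune cells, had 31.8, 113.2 and 262 CPM in mice below the median (lowest, median and highest of 36 mice), against 27.3, 113.8 and 382 CPM in mice above it (83 mice). The classes overlapped over nearly the whole range, and the log2 fold change of Tgfb1, below minus above, was -0.02 ± 0.12 (SE, edgeR, adjusted p = 0.988) with a 95% interval of -0.26 to 0.22. Tgfb2, the isoform that binds its signalling receptor poorly without a coreceptor, had 5.08, 71.8 and 1555 CPM in mice below the median, against 0.539, 53.02 and 764 CPM in mice above it. The highest mouse, VUX2-G1 below the median, alone held 12.5% of the CPM of Tgfb2 summed over 119 mice. The log2 fold change of Tgfb2 was 0.45 ± 0.32 (edgeR, adjusted p = 0.778) and turned to -0.12 in DESeq2 (adjusted p = 0.955). Tgfb3 had 12.9, 123 and 334 CPM in mice below the median, against 7.17, 83.1 and 345 CPM in mice above it. Its median was higher below, the ranges overlapped, and the log2 fold change was 0.37 ± 0.21 (edgeR, adjusted p = 0.654).

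**Figure D1:**
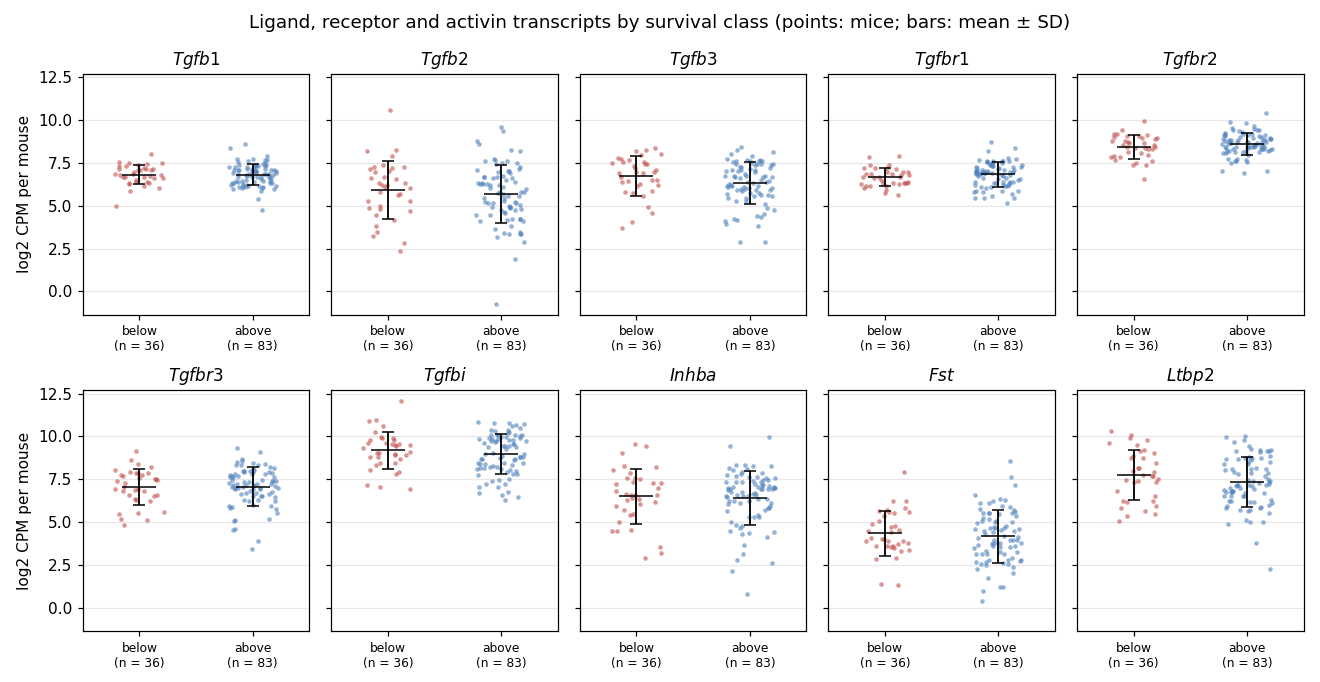
Levels of the 10 transcripts in each mouse, as log2 CPM on the vertical axis, with the 36 mice below median survival left of the 83 mice above it in every panel. Points are mice and bars are the mean ± SD. The classes overlap in each panel, and the vertical spread is far wider for Tgfb2, Inhba, Fst and Ltbp2 than for Tgfb1 or the kinase receptors.

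Among the receptors, Tgfbr1, the kinase that phosphorylates SMADs, had 48.97, 102.4 and 242 CPM in mice below the median, against 35.8, 119.95 and 416 CPM in mice above it, a log2 fold change of -0.23 ± 0.13 (edgeR, adjusted p = 0.646). Tgfbr2 had 93.1, 355 and 989.6 CPM in mice below the median, against 120.3, 397 and 1366 CPM in mice above it (-0.16 ± 0.13, adjusted p = 0.825). Tgfbr3, which encodes betaglycan, a coreceptor that presents ligand, had 27.7, 141 and 564 CPM in mice below the median, against 10.7, 144 and 645 CPM in mice above it (-0.05 ± 0.20, adjusted p = 0.984). The receptor classes overlapped as widely as those of the ligands. With strain as a covariate over all mice Tgfbr2 was at 0.32 and Tgfbr3 at 0.50 (edgeR, adjusted p of 0.447 for Tgfbr2 and 0.507 for Tgfbr3).

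Outside the core pathway, Ltbp2 had 32.6, 209 and 1299 CPM in mice below the median, against 4.78, 145.99 and 1029 CPM in mice above it. Ltbp2 belongs to the family of latent TGF-beta binding proteins but, unlike its relatives, does not bind latent ligand and sits on elastic microfibrils. Its log2 fold change was 0.47 ± 0.27 (edgeR, adjusted p = 0.646). It was 1.85 within the 8 strains with Umod in every mouse (7 mice below and 21 above, adjusted p = 0.0663) and 0.02 in the other strains (adjusted p = 1.000). Inhba, whose product pairs with itself to form activin A, had 7.48, 95.8 and 752 CPM in mice below the median, against 1.68, 108.4 and 1001 CPM in mice above it (0.21 ± 0.28, adjusted p = 0.929). Fst encodes follistatin, which binds and neutralises activin, and had 2.44, 16.3 and 240.3 CPM in mice below the median, against 1.25, 16.7 and 379 CPM in mice above it (-0.03 ± 0.30, adjusted p = 0.992). Tgfbi had 122, 597 and 4250 CPM in mice below the median, against 78.2, 507 and 1831 CPM in mice above it (0.24 ± 0.22, adjusted p = 0.850). The ranges of each of these overlapped across the classes.

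Strain and survival class were mixed in this series, so the classes were also compared within the 13 strains that held both, in 22 mice below and 35 mice above the median. No gene of 16481 passed in edgeR (0%), although 1882 (11.4%) had an unadjusted p under 0.05, and limma-voom called 0 genes. DESeq2 called 65 genes (0.394%), of which Tgfb3 was 1. Tgfb3 had 12.9, 126 and 334 CPM in mice below the median, against 7.17, 62.8 and 203 CPM in mice above it. The ranges overlapped, and the strain mean of Tgfb3 was higher below the median in 11 of 13 strains. In GIT, counted as higher, the difference was only 0.0096 log2. In CC021, CC040, Piping, VIT, VUX and YID a class was a single mouse, which holds for each count of strains below. The log2 fold change of Tgfb3 within strain was 1.07 ± 0.29 (edgeR, p = 0.000638, adjusted p = 0.366), with a 95% interval of 0.48 to 1.66, and the adjusted p in DESeq2 was 0.0414. Strain VIT, with 1 mouse of each class, gave the widest gap, and without it the difference was 0.95 (edgeR, adjusted p = 0.561).

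Tgfb2 and Ltbp2 ran in the same direction within strain, and neither passed. Tgfb2 had 5.08, 76.8 and 1555 CPM in the 22 mice below the median, against 3.70, 30.5 and 209.9 CPM in the 35 mice above it. It was higher below in 9 of 13 strains, by 1.202 ± 0.444 (log2 ± SE, edgeR, p = 0.00945, adjusted p = 0.403, DESeq2 adjusted p = 0.0901). Ltbp2 had 44.4, 229 and 1082 CPM in mice below the median, against 4.78, 108.2 and 687 CPM in mice above it. It was higher below in 12 of 13 strains, by 1.15 ± 0.38 (edgeR, p = 0.00416, adjusted p = 0.402, DESeq2 adjusted p = 0.0677). Tgfbr3, Tgfbi, Inhba and Tgfbr2 had differences of 0.50, 0.49, 0.35 and 0.33, and Tgfb1, Fst and Tgfbr1 of -0.06, -0.08 and -0.17 (edgeR, adjusted p between 0.465 and 0.964).

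Scores of other lists are given beside these values, with no test of class. None of the genes in the collagen, contractile, mesothelial, endothelial, macrophage and T cell lists passed within strain in edgeR. The collagen score, the mean of centred log2 CPM over 14 collagen genes, was higher below the median in 11 of 13 strains, with a median difference of 0.46. The T cell score over 12 genes was lower below the median in 11 of 13 strains, with a median difference of -0.56. The mesothelial score was lower below the median in 9 of 13 strains, with a median difference of -0.68, and the macrophage score in 8 of 13, with -0.14. The endothelial score was higher below the median in 11 of 13 strains, with a median difference of 0.55, and the contractile score in 10 of 13, with 0.22. Over all mice the T cell score ranged from -2.64 to 4.34 in mice below and from -3.69 to 5.15 in mice above the median, and the endothelial score from -2.29 to 2.34 and from -3.14 to 1.63. The part of these cell types in the ligand differences was not tested.

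The second comparison asks how the transcripts relate to collagen genes across mice. Of the 10 genes, 7 had a positive slope on the collagen score that passed over all genes, and none had a negative one that passed. In the background, 18.8% of 18830 genes passed with a positive slope and 37.6% with a negative slope (edgeR, adjusted p under 0.05), 56.4% in all. The same 7 passed with strain as a covariate (background 15.8% positive), in limma-voom (22.8%) and without the strains with Umod in every mouse (18.9%). In the 28 mice of those strains 4 passed, Tgfb2, Tgfb3, Tgfbi and Tgfbr2 (7.97%). Tgfb2 rose by 1.03 ± 0.08 (SE) on the log2 scale for each unit of score (adjusted p = 2.41e-21), or 2.05-fold. Tgfb3 rose by 0.65 ± 0.07 (adjusted p = 3.51e-15) and Inhba by 0.64 ± 0.12 (adjusted p = 1.76e-06). Tgfbi rose by 0.53 ± 0.07, Ltbp2 by 0.47 ± 0.10, Tgfbr3 by 0.45 ± 0.08 and Tgfbr2 by 0.25 ± 0.04 (edgeR, adjusted p between 2.60e-11 and 2.19e-05).

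Markers of cell types moved with the same score. Fibroblast genes passed upward in 8 of 9 (median slope 0.62), T cell genes downward in 12 of 12 (-0.89), hepatocyte genes downward in 14 of 14 (-1.53) and adipocyte genes downward in 9 of 10 (-0.83). Without libraries of over 1% other tissue 7 members still passed, where 23.4% of all genes passed upward and 56.1% in either direction. The part of fibroblast numbers was not tested.

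The remaining 3 genes did not pass. Tgfb1 had a slope of -0.001 ± 0.039 (edgeR, adjusted p = 0.979) with a 95% interval of -0.08 to 0.08, so a slope as steep as that of Tgfbr2 lay outside its interval. Tgfbr1 had a slope of -0.02 ± 0.05 (adjusted p = 0.772, interval -0.12 to 0.08). Fst had a slope of -0.22 ± 0.13 (adjusted p = 0.134), and in limma-voom 0.18 (adjusted p = 0.138).

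The difference in slope between genes was tested on log2 ratios of pairs of genes in the same mouse. The ratio of Tgfb2 to Tgfb1 rose with the collagen score by 0.96 per unit (Pearson r = 0.70, Spearman rho = 0.63, both p = 1e-05, the smallest that 100000 permutations can give). The ratio of Tgfb3 to Tgfb1 rose by 0.67 (r = 0.65, rho = 0.53), and the ratio of Tgfb2 to Tgfb3 by 0.29 (r = 0.30, rho = 0.28). Among receptors the ratio of Tgfbr2 to Tgfbr1 rose by 0.28 (r = 0.41, rho = 0.46) and that of Tgfbr3 to Tgfbr1 by 0.52 (r = 0.55, rho = 0.45). The adjusted permutation p of r over the 12 ratios and scores tested was 0.0015 or lower for each of these 5. The ratio of Tgfbr3 to Tgfbr2 rose by 0.24 (r = 0.31, adjusted permutation p = 0.00106), but its rho of 0.15 did not pass (adjusted permutation p = 0.136). Without the 2 mice farthest from the median score the r of these 6 ratios lay between 0.18, for Tgfbr3 to Tgfbr2, and 0.65, for Tgfb2 to Tgfb1.

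**Figure D2:**
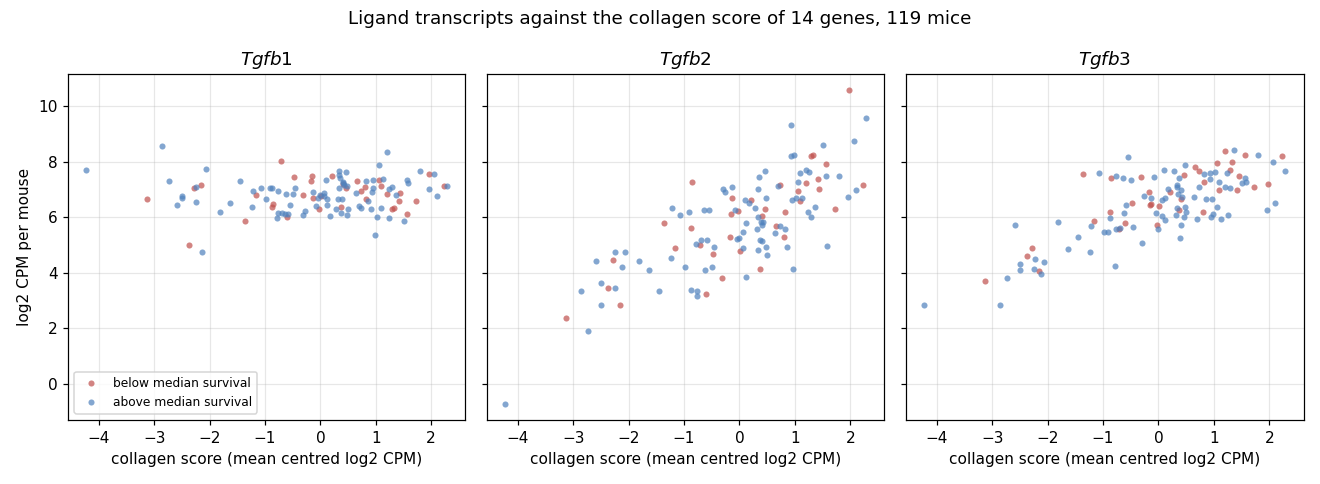
Log2 CPM of Tgfb1, Tgfb2 and Tgfb3 on the vertical axis against the collagen score on the horizontal axis, with 1 point for each of 119 mice, red for below and blue for above median survival. Tgfb2 and Tgfb3 climb along the score (r = 0.77 and 0.76), while the Tgfb1 points stay level (r = 0.08).

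As single correlations with the collagen score, Tgfb2 had r = 0.77 and rho = 0.72, Tgfb3 0.76 and 0.65, and Inhba 0.65 and 0.49. Tgfbr3 had r = 0.63 and rho = 0.45, Tgfbi 0.62 and 0.58, Tgfbr2 0.57 and 0.61, and Ltbp2 0.35 and 0.34. All 7 passed on both measures (permutation tests, adjusted over 70 relations, adjusted p of 7e-04 or lower). Fst had r = 0.13 and rho = 0.05, Tgfb1 0.08 and 0.13, and Tgfbr1 0.01 and -0.01, and none of these passed (adjusted permutation p of r of 0.295, 0.491 and 0.959). The median rho of the 10 genes with the collagen score was 0.47, against -0.02 over 17176 genes, of which 90% lay between -0.38 and 0.47. Centred within strains of more than 1 mouse, r was 0.75 for Tgfb2, 0.72 for Tgfb3, 0.64 for Inhba and 0.41 for Ltbp2. In the 28 mice of the 8 strains with Umod in every mouse r was 0.79 for Tgfb2 and 0.83 for Tgfb3, and in the other 91 mice 0.76 and 0.75. Without the 2 mice farthest from the median score the 7 values ran from 0.32 for Ltbp2 to 0.73 for Tgfb2. The largest gap in the collagen score, 1.09, set 1 mouse apart from the other 118. A gap in a single score cannot show groups that overlap, so clusters of mice were not tested.

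Single collagen genes differed in how closely they followed the ligands. Tgfb2 was closest to Col5a2 (rho = 0.74) and Col1a2 (0.71), genes of fibrillar collagens, and least close to Col14a1 (0.35), which encodes a collagen bound to fibril surfaces. Tgfb3 was closest to Col1a1 (0.61) and Col5a1 (0.60) and least close to Col14a1 (0.37). Tgfbi was closest to Col6a3 (0.76) and Col16a1 (0.71), and Inhba to Col6a3 (0.53) and Col5a3 (0.50), with Col14a1 at -0.08 and -0.05. These are descriptions over the 119 mice with no test.

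Several mice with low Tgfb2 had high T cell scores. Mouse LOX-E4 had the lowest Tgfb2 (0.539 CPM), the lowest Inhba (1.68 CPM) and the lowest Tgfbr3 (10.7 CPM) of the 119 mice, with a collagen score of -4.22 and a T cell score of 3.77. The next lowest Tgfb2 was in CC044-F4 at 3.70 CPM, with a T cell score of 4.68, and in CC044-J3 at 5.08 CPM, with 4.01. At the other end VUX2-G1 (1555 CPM) and PEF2-A2 (764 CPM) had collagen scores of 1.97 and 2.29 and T cell scores of -1.73 and -1.10. The collagen and T cell scores had r = -0.45 over mice. With the T cell score as a covariate, an alternative chosen after seeing the data, the same 7 genes passed with positive slopes, against 14.1% of all genes. The slope was then 0.94 for Tgfb2, 0.58 for Tgfb3 and 0.46 for Inhba (edgeR, adjusted p of 5.36e-05 or lower).

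The third comparison asks how the transcripts relate to contractile genes, those of smooth muscle and myofibroblasts such as Acta2, Tagln and Cnn1. Only Tgfb3 and Tgfbr2 of the 10 had a slope on the score of 14 contractile genes that passed in edgeR, both positive, in a background where 13.5% of 19315 genes passed with a positive and 22.9% with a negative slope, 36.4% in all. Tgfb3 rose by 0.38 ± 0.10 per unit of score (adjusted p = 0.000859) and Tgfbr2 by 0.17 ± 0.05 (adjusted p = 0.00522). Tgfb2 had a slope of 0.36 ± 0.17 (edgeR, adjusted p = 0.0820). It passed in limma-voom at 0.48 (adjusted p = 0.00214), with 1 tumour per mouse at 0.53 (adjusted p = 0.0146), without libraries of over 1% other tissue at 0.53 (adjusted p = 0.0198) and without the libraries nearer to another strain at 0.42 (adjusted p = 0.0413). With strain as a covariate Tgfb3 kept a slope of 0.39 (edgeR, adjusted p = 0.0150) and Tgfbr2 had 0.16 (adjusted p = 0.0511), in a background of 6.53% positive. In the strains with Umod in every mouse 0 of the 10 passed (1.82% positive), and in the other strains Tgfb3 and Tgfbr2 (12.5%). limma-voom called 16.3% positive, and among the members also Tgfbr3. The slopes of the other 7 genes ran from -0.20 for Fst to 0.14 for Ltbp2 (edgeR, adjusted p between 0.228 and 0.907), with Tgfb1 at -0.07 ± 0.05 (interval -0.16 to 0.02).

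Markers of normal tissues also moved with the contractile score. Skeletal muscle genes passed upward in 12 of 12 (median slope 2.30), reproductive tract genes in 7 of 7 (1.66), intestinal genes in 8 of 9 (1.52) and adipocyte genes in 9 of 10 (0.76), and hepatocyte genes downward in 13 of 14 (-1.14). Their part in the slopes of Tgfb3 and Tgfbr2 was not tested beyond leaving out libraries of over 1% other tissue, where 3 members passed.

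Correlations with the contractile score were lower than with collagen for each gene that passed on both. Tgfb3 had r = 0.42 and rho = 0.42, Tgfb2 0.36 and 0.38, and Tgfbr2 0.32 and 0.37 (permutation tests, adjusted p of 0.0015 or lower). Tgfbr3 had r = 0.29 (adjusted permutation p = 0.00374), while its rho of 0.21 did not pass (adjusted permutation p = 0.0577). The collagen and contractile scores themselves had r = 0.51. Single contractile genes did not move alike with the members. Tgfb3 was closest to Tpm2 (rho = 0.48) and Smtn (0.44) and had rho = 0.00 with Myh11, the smooth muscle myosin heavy chain. Inhba was closest to Cald1 (0.64), which encodes caldesmon, and had rho = -0.26 with Synpo2. Tgfbr2 was closest to Tagln (0.38) and Myl9 (0.35), with Myh11 at 0.02. The ratio of Tgfb3 to Tgfb1 rose with the contractile score by 0.48 per unit (r = 0.41, rho = 0.38) and that of Tgfb2 to Tgfb1 by 0.57 (r = 0.37, rho = 0.37), with adjusted permutation p of r of 6e-05 or lower.

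**Figure D3:**
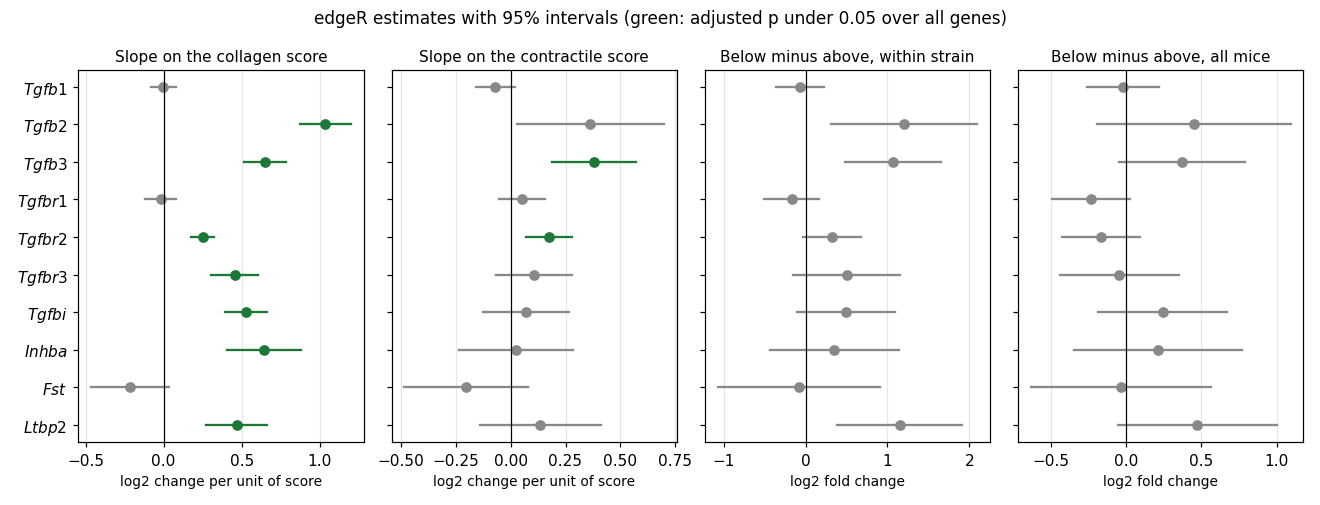
Estimates with 95% intervals for the 10 genes, from left to right the slope on the collagen score, the slope on the contractile score, the difference below minus above median survival within strain and the same difference over all mice, in log2 units on the horizontal axes. Green marks an adjusted p under 0.05 over all genes. Of the 10 genes 7 are green for collagen, 2 for contractile genes and none for survival.

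Other genes of the pathway were read from the same fits. On the collagen score 8 of 12 genes of ligand latency and activation passed upward and 2 downward. Over all genes 18.8% passed upward and 37.6% downward, 56.4% in all. Fbn1, which encodes fibrillin of the microfibrils that hold latent ligand, rose by 0.86 ± 0.05, and Emilin1 by 0.56 ± 0.05, whereas Itgb6, a subunit of an epithelial integrin that activates TGF-beta, fell by 0.68 ± 0.20 and Nrros, which holds latent TGF-beta1 on myeloid cells, fell by 0.21 ± 0.05 per unit. Of 11 further activin genes 5 passed upward and 1 downward, led by Fstl1 at 0.99 ± 0.05 and Acvr1 at 0.37 ± 0.05, with Acvr1c at -0.40 ± 0.15. Of 14 SMAD and regulator genes 9 passed upward, among them Pmepa1, a TGF-beta-induced inhibitor of the pathway, at 0.64 ± 0.06 and Cd109, which encodes a TGF-beta binding coreceptor, at 0.69 ± 0.08. The genes of the SMAD proteins Smad2 and Smad7 had slopes of -0.004 and -0.008 and did not pass. Of 18 genes known as TGF-beta targets 16 passed upward, with Postn, which encodes the matrix protein periostin, at 1.36 ± 0.09 and Loxl2, a collagen crosslinking enzyme, at 1.00 ± 0.06. The list medians were 0.37 for latency, 0.00 for activin, 0.14 for SMADs and 0.68 for targets, against -0.06 over all genes. Several targets are matrix genes themselves, so the target list is not independent of the collagen score. The target list also shares Ltbp1 with the latency list and Pmepa1, Skil and Smad7 with the SMAD list.

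On the contractile score 4 of 12 latency genes, 3 of 11 activin genes, 5 of 14 SMAD and regulator genes and 12 of 18 targets passed, all upward, where 13.5% of all genes passed upward and 36.4% in either direction. The lowest p were those of Fbn1 (0.56 ± 0.10) and Thbs1 (0.65 ± 0.12), Fstl1 (0.59 ± 0.11) and Acvr2a (0.13 ± 0.05), Pmepa1 (0.32 ± 0.09) and Ski (0.16 ± 0.05), and Comp (1.40 ± 0.18) and Ccn2 (0.64 ± 0.11). In the survival comparisons none of the genes in these 4 lists passed in edgeR. Over all mice the target gene Timp1 had 0.88 ± 0.29 (adjusted p = 0.130) and Itgb6 -1.30 ± 0.53 (adjusted p = 0.339). Within strain Postn had 1.70 ± 0.57 and Tnc 1.46 ± 0.49 (edgeR, adjusted p = 0.402 each), Fstl1 0.93 ± 0.36 and Smad7 0.44 ± 0.16 (adjusted p = 0.403 each), and the median of the target list was 0.65 against -0.01 over all genes.

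The members were also set against markers of the cell types a whole tumour can hold. Of 70 relations between 10 genes and 7 list scores, 30 passed for Pearson's r (permutation tests, adjusted p under 0.05). Many genes outside the list had relations of this size, and the share of all genes passing the same test is not given here. With T cell genes 90% of 17176 genes had a rho between -0.37 and 0.50, and of the members only Inhba lay below that range, at percentile 2.12 of all genes, while Tgfbi was at 7.79, Tgfbr3 at 8.42, Tgfb2 at 10.2 and Tgfb3 at 17.8. Inhba had the strongest relation to T cell genes, r = -0.58 and rho = -0.43, followed by Tgfbr3 (-0.48 and -0.32), Tgfb2 (-0.47 and -0.30), Tgfb3 (-0.45 and -0.22) and Tgfbi (-0.37 and -0.33), each with an adjusted permutation p of 0.0443 or lower on both measures. Fst had r = -0.30 with T cell genes (adjusted permutation p = 0.00376), and its rho of -0.18 did not pass. Centred within strain Inhba had r = -0.53 and Fst -0.38. The kinase receptors and Tgfb1 did not pass against T cell genes, with r between -0.10 and 0.07.

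Other relations that passed involved macrophage, endothelial, mesothelial and cell cycle genes. Tgfbr2 rose with the macrophage score (r = 0.37, rho = 0.42) and with the endothelial score (r = 0.26, rho = 0.32, permutation tests, adjusted p of 0.0117 or lower). By rho with the endothelial score, Tgfbi, Tgfb3 and Tgfb2 were at percentiles 96.1, 95.5 and 95.2 of all genes. Tgfbr2 was at 94.1. Tgfb1 had r = 0.29 with the macrophage score (adjusted permutation p = 0.00381), while its rho of 0.17 did not pass (adjusted permutation p = 0.130). Without the 2 mice farthest from the median macrophage score the r of Tgfb1 was 0.25 (adjusted permutation p = 0.0177). Against mesothelial markers Tgfbi had r = -0.43 and rho = -0.41, Tgfb1 -0.30 and -0.34, and Tgfbr1 0.36 and 0.34 (permutation tests, adjusted p of 0.00315 or lower). Tgfbr1 was thus the only 1 of the 10 with a positive relation to mesothelial markers that passed. Tgfb2 had r = -0.28 and rho = -0.42 with the cell cycle score (adjusted permutation p of 0.00759 and 0.00013). By rho with the macrophage score, Tgfbr2 and Tgfb1 were at percentiles 97.5 and 83.5 of all genes. With mesothelial markers Tgfbr1, Tgfb1 and Tgfbi were at percentiles 93.1, 7.53 and 3.03, and with the cell cycle score Tgfb2 was at 4.36.

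**Figure D4:**
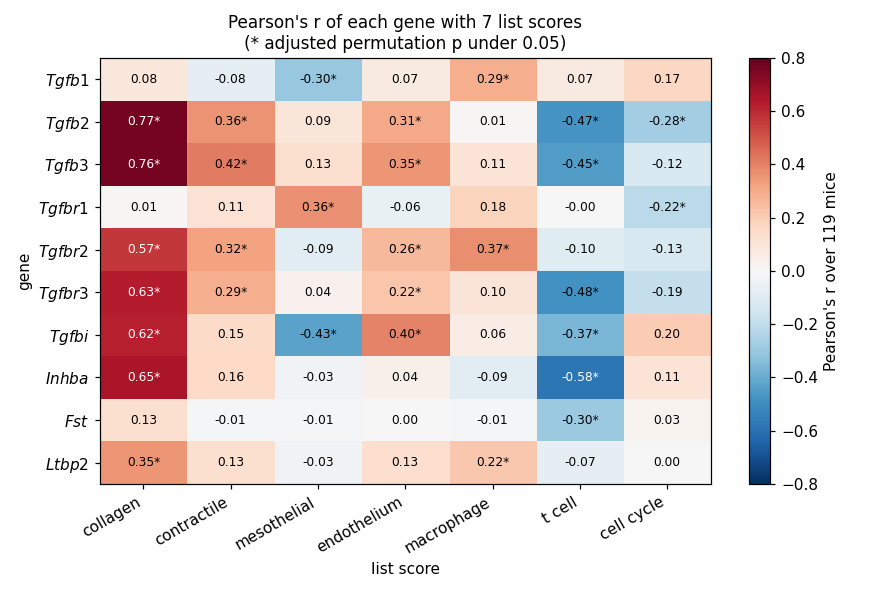
Pearson's r over 119 mice of each of the 10 genes (rows) with the scores of 7 gene lists (columns), red for positive and blue for negative, with an asterisk where the adjusted permutation p is under 0.05. The collagen column is red for 7 genes with an asterisk, and the T cell column blue for 6.

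Among themselves the genes formed no single block. Over the 119 mice Tgfb2 and Tgfb3 had the highest rank correlation (rho = 0.61), followed by Tgfb2 with Tgfbi (0.52), Tgfbi with Inhba (0.52) and Tgfb3 with Ltbp2 (0.48). The receptor genes Tgfbr2 and Tgfbr3 had rho = 0.37, Tgfb1 with Tgfbr1 -0.13, Tgfb1 with Tgfbr3 -0.18, and Tgfbr1 with Tgfbi -0.20. These values share libraries and depth and carry no test.

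The 3 genes most like each member in rank over 119 mice, among 12254 genes with a mean of at least 5 CPM, differed from member to member. For Tgfb2 they were Speg, Col5a2 and Igdcc4 (rho of 0.75, 0.74 and 0.74), and for Tgfb3 Samd4, Sparc and Kif26b (0.67, 0.65 and 0.64). For Tgfbi they were Angptl2, Ltbp1 and Col6a3 (0.79, 0.77 and 0.76), and for Tgfbr2 Medag, Loxl1 and Col5a2 (0.62, 0.61 and 0.59). Tgfbr3 was most like Ebf4, Pdgfra and Larp6 (0.68, 0.67 and 0.65), of which Pdgfra encodes a growth factor receptor of fibroblasts. Tgfb1 was most like Gnai2, Tbc1d10b and St6galnac4 (0.75, 0.69 and 0.68), none of them a matrix gene. Inhba was most like Cep170, Camsap2 and Zswim6 (0.75, 0.72 and 0.69), of which the first and the second encode proteins of centrosomes and microtubules. Ltbp2 was most like the proteoglycan gene Bgn, Ak5 and Csf1 (0.60, 0.56 and 0.53), Tgfbr1 like Fcho2, Acer3 and C9orf72 (0.62, 0.62 and 0.61), and Fst like Slit2, Cldn12 and Bod1 (0.52, 0.51 and 0.51).

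The fourth comparison asks how the levels differ between the 25 strains that held 3 mice or more. In edgeR 4 of the 10 genes passed, in a background of 69% of 20687 genes, a share above that of the members. They were Tgfb1 (F = 2.84, adjusted p = 0.000734), Inhba (F = 2.28, adjusted p = 0.00662), Tgfb2 (F = 2.01, adjusted p = 0.0187) and Tgfbr2 (F = 1.75, adjusted p = 0.0483). limma-voom called these and Tgfb3 (adjusted p = 0.00109), in a background of 50.4%. Only Tgfb1 and Inhba passed without the 17 libraries of the highest numbers in the labels, in a background of 65.2%. Only Tgfb1 and Tgfb2 passed without the strains with Umod in every mouse, in a background of 57.7%. Tgfbr2 did not pass either with no filter on low counts (adjusted p = 0.0641) or with 1 tumour per mouse (adjusted p = 0.101), and Tgfbr1 passed without the 5 libraries nearer to another strain (adjusted p = 0.0450). Of the other pathway genes 6 of 12 latency, 9 of 11 activin, 8 of 14 SMAD and regulator and 13 of 18 target genes passed, with Itgb6 (F = 5.94) and the endothelial receptor Acvrl1 (F = 3.38) among those of lowest p (edgeR). The share of variance in log2 CPM between strains was 45.1% for Tgfb1, 44.2% for Inhba and 43.4% for Tgfb3, down to 24.3% for Fst, against a median of 36.3% over all genes. Means of few mice differ by chance, so this share is sizeable even where strains do not differ, and it was not corrected for that. Tgfbi and Ltbp2 had 27.5% each and, like Fst, did not pass the strain test in edgeR.

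Tgfb1 was highest in CC059 (7.47 ± 0.58 log2 CPM, SD, n = 5 mice), LAT (7.38 ± 0.73, n = 5) and Rogan (7.30 ± 0.40, n = 4), and lowest in LAX (6.197 ± 0.71, n = 6) and CC058 (5.89 ± 0.45, n = 3). Every CC059 mouse was above every CC058 mouse, but these strains were picked as the ends of the order, which favours such a gap. The highest and lowest strains of Tgfb3, Tgfbr1, Tgfbr2 and Ltbp2 did not overlap either, and those of the other genes did. Of Tgfb3, Tgfbr1, Tgfbr2 and Ltbp2 only Tgfbr2 passed the strain test in edgeR. Inhba was highest in CC001 (8.22 ± 1.54, n = 3), CC060 (8.15 ± 0.28, n = 3) and GIT (7.97 ± 1.42, n = 4), and lowest in CC053 (5.04 ± 1.28, n = 6) and CC044 (4.47 ± 1.90, n = 7). Tgfb2 was highest in KAV (7.83 ± 1.31, n = 3) and VUX (7.81 ± 1.94, n = 4), and lowest in YID (4.73 ± 1.37, n = 4) and CC044 (4.37 ± 2.14, n = 7). Tgfb3 was highest in CC046 (7.64 ± 0.24, n = 3) and CIS (7.55 ± 0.10, n = 3), and lowest in CC053 (5.20 ± 1.24, n = 6) and CC044 (4.80 ± 1.28, n = 7). All 24 adjacent pairs of strains in the order overlapped within 1 SD for every gene except Tgfbr1, with 23 of 24. Sorting by mean sets close means side by side, so this overlap cannot show that neighbouring strains are alike.

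By strain mean CC044 was lowest for Tgfb2, Tgfb3, Tgfbr3 (5.98 ± 1.81), Inhba and Fst (2.99 ± 1.74). The strain means of its T cell score were 2.43 in its 3 mice below and 2.99 in its 4 mice above the median, and those of its collagen score -1.19 and -1.65. Its mice were not alike. CC044-F2, below the median, held 564 CPM of Tgfbr3 and 138 CPM of Tgfb3, with a T cell score of -1.04 and a collagen score of 1.73. CC044-D3, above the median, held 204 CPM of Tgfb2 and 190 CPM of Inhba, with scores of 0.45 and 0.45. The other CC044 mice had T cell scores from 3.40 to 4.68 and collagen scores from -3.14 to -2.06. The part of the cells behind these scores in the strain's levels was not tested. The other genes had different ends of their order. Tgfbr1 was highest in CC021 (7.61 ± 0.74) and lowest in CC040 (5.92 ± 0.47), Tgfbr2 in Rogan (9.22 ± 0.45) and CC053 (7.74 ± 0.48), and Tgfbr3 was highest in CC001 (8.43 ± 0.12). Tgfbi was highest in VUX (10.03 ± 2.04) and lowest in CC035 (7.97 ± 1.09), Ltbp2 was highest in CC046 (8.99 ± 0.83) and lowest in VUX (5.24 ± 2.18), and Fst was highest in CC040 (5.78 ± 1.93).

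**Figure D5:**
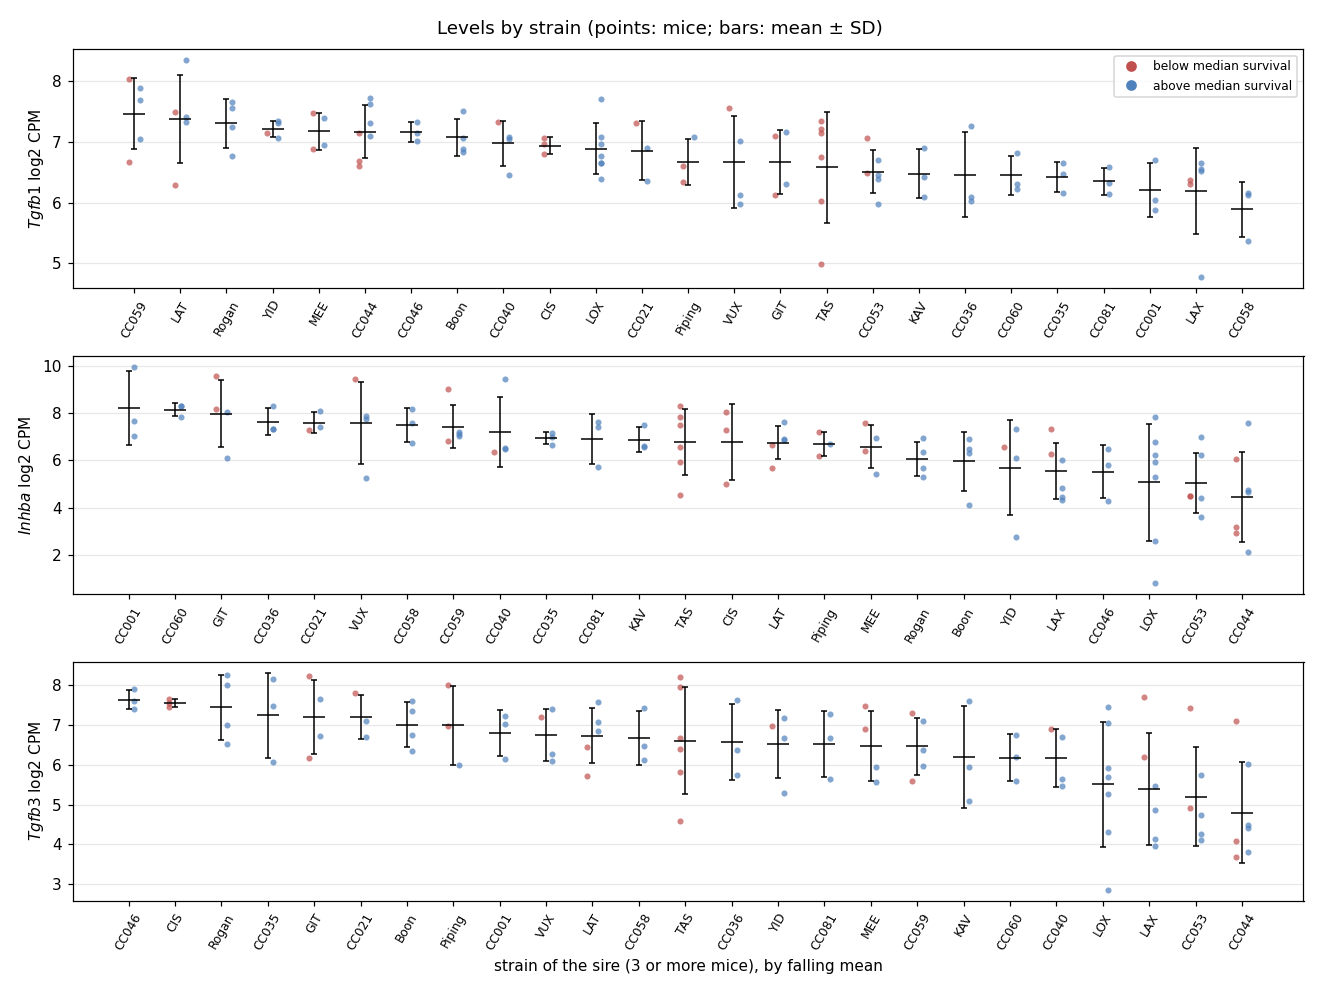
Log2 CPM of Tgfb1, Inhba and Tgfb3 (vertical axes) in 25 strains with 3 or more mice, ordered by falling strain mean on the horizontal axes. Points are mice, red for below and left of blue for above median survival, and bars are the mean ± SD. Neighbouring strains overlap along the whole order, which sorting by mean favours, and CC044 is last for Inhba and Tgfb3 but not for Tgfb1.

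The spread between tumours of the same mouse was close to that between mice for some members. In 35 mice with several tumours, 83 in all, the SD within a mouse was 0.50 log2 CPM for Tgfb1 and 1.30 for Inhba, against 0.53 and 1.39 between mice of a strain. The ratio of these SDs was 0.95 for Tgfb1, 0.93 for Inhba and 0.63 for Tgfbi. Without the libraries nearer to another strain it was 0.88 for Tgfb1, 0.89 for Inhba, 0.52 for Tgfbi and 0.51 for Ltbp2. The 3 tumours of mouse CC059-E2 held 1172, 511 and 8.61 CPM of Inhba and 326, 382 and 111.9 CPM of Tgfb1. The 2 tumours of CC053-A1 held 194 and 1.94 CPM of Fst, and 151.99 and 5.64 CPM of Inhba. The widest range of Ltbp2, 3.87 to 8.91 log2 CPM, came from mouse LAT-D3, of which 1 library resembled another strain. Inhba thus spanned the widest range of the 10 genes within a mouse, 3.12 to 10.19 log2 CPM.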

How the data were processed

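RNA-seq of 167 tumours of 119 mice was analysed. The tools kallisto 0.46.1, DESeq2 and DESeq and the build GRCm38 are named, without their roles, per the submitters' processing notes. The deposited values are estimated counts per gene, and 35825 of 36118 gene IDs had a symbol. A second deposited table held the same values for 22049 genes. Columns were joined to samples by title, and 2 columns of mouse GIT-K1 were joined only to their mouse, strain and class.

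Counts were summed per mouse, so the mouse was the replicate. Tests were edgeR 4.0.16 quasi-likelihood fits (TMM, filterByExpr, R 4.3.3), with limma 3.58.1 voom and DESeq2 1.42.0 as alternatives, and Benjamini-Hochberg adjustment over all genes tested. List scores are means of centred log2 CPM (prior count 2). Correlations used permutation tests with 100000 resamples, two-sided (scipy 1.17.1). Summed tumours raise the depth of some mice. The edgeR fits were tested on simulated data with a lower dispersion than the fits estimated here. The strain simulation planted changes in a single strain and recovered 19.5% of them. That value cannot be set against the 82% to 100% of the other fits, whose changes ran over all mice fitted. The members and lists were chosen with earlier results of these data known. Named genes outside the members are the 3 nearest to each member by rank correlation and, of each pathway list, the 2 of lowest p in each direction of a slope and the 2 of lowest p in other tests, given here in part.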

Additional observations from a re-analysis of the deposited data

Results flagged for a closer look

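Within the 14 strains of 4 to 7 mice, the highest and lowest mouse of each gene was compared with the rest of its strain. In 7 of 140 groups, or 5%, a mouse stood apart by Dixon's criterion at the 95% level, and chance does so in about 1 in 20 groups. Inhba was highest in CC040-D3 at 9.42 log2 CPM, with the next of 4 mice at 6.54, and in CC059-E2 at 9.02, with the next of 5 mice at 7.19. Tgfbi was highest in CC053-A4 at 9.90, with the next of 6 mice at 7.92. Tgfb1 was lowest in LAX-E2 at 4.77, against 6.30 in the nearest of 6 mice. Tgfb2 was lowest in LOX-E4 at -0.73, against 3.62 in the nearest of 7 mice, and in MEE-A3 at 3.35, against 6.62 in the nearest of 4 mice. These 2 mice had T cell scores of 3.77 and 3.29, and a library of MEE-A3 resembled another strain. Tgfbr2 was lowest in TAS-I1 at 6.54, against 8.14 in the nearest of 6 mice.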

How the results depend on the processing

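Over all settings, 680 values of single genes were classed as the same, 48 lost the call and 11 gained it. For slopes, contrasts and correlations the same meant the same direction and side of the threshold. Strain F values have no direction, so only the side counted. Ratios of SDs were the same when they moved by less than the SD of the ratios over genes. Counts of members passing changed by over 1.5 times in 8 cases. Within strain DESeq2 called 1 member, against 0 in edgeR. Between strains 4 passed in the main fit (69% of all genes). Without the libraries of the highest numbers 2 passed (65.2%), and 2 without the strains with Umod in every mouse (57.7%). Within those Umod strains 4 passed for collagen, against 7, 0 for contractile genes, against 2, and 6 correlations, against 30. For contractile genes 4 passed in limma-voom and 1 with strain as a covariate. Smaller changes were 3 to 5 between strains, 3 for contractile genes in 3 settings and 20 to 35 correlations.

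Signs turned in 43 cases, and the cause was not tested. For survival, Fst was 0.18 and Tgfb1 0.011 in limma-voom, Tgfb2 -0.12 in DESeq2, Fst 0.12 and Tgfb1 0.0042 without libraries of over 1% other tissue, and Fst 0.0089 without libraries nearer to another strain. It was 0.32 for Tgfbr2 and 0.50 for Tgfbr3 with strain as a covariate, 0.0086 for Tgfb1 without mouse TAS-I1, 0.28 for Fst and -0.13 for Tgfb2 without the highest library numbers, and 0.22 for Tgfb1 and 0.21 for Tgfbr3 in Umod strains. Within strain, Fst was 0.24 in limma-voom, 0.066 with 1 tumour per mouse, 0.20 without other tissue and 0.0014 without CC044, where Tgfb1 was 0.020. For collagen, Tgfb1 was 0.0058 with no filter, 0.029 in limma-voom, 0.055 in Umod strains, 0.019 without them and 0.0068 with the T cell score, and Fst 0.18 in limma-voom and 0.24 with strain. For contractile genes, Fst was 0.036 in limma-voom and 0.014 without other tissue, Tgfbr3 -0.029 in Umod strains and Inhba -0.029 without them.

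Among correlations, Tgfbr1 with collagen was -0.15 centred within strain, -0.041 without the 2 farthest mice, -0.085 in Umod strains and -0.0017 without them. Fst with contractile genes was 0.0043 centred, 0.10 without the 2 farthest mice, 0.11 without other tissue, 0.0053 without libraries nearer to another strain and 0.0069 without Umod strains. Tgfb1 with collagen was -0.039 without other tissue. In Umod strains Tgfb1 was 0.075 with contractile and 0.10 with mesothelial genes, Tgfbr3 -0.047 with endothelial genes and Fst -0.088 with collagen. No paired analysis was possible because replicate numbers only follow accession order. Transcripts near the floor, such as Fst and Tgfb2 in their lowest mice, carry the widest counting error, and tumours of a mouse were not separated in the tests.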
